A study of Mus musculus with 13 samples.

Results

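The genes described here are 10 genes of the antioxidant defence of the lung, Nqo1, Hmox1, Gclc, Gclm, Txnrd1, Srxn1, Sod1, Sod2, Sod3 and Cat. They were taken as the rows of the gene tables that carry these symbols. All 10 were found among the 20270 genes listed and all 10 passed the filter on low counts, which left 15315 genes to test. The measurements were RNA sequencing of the lower right lung lobe of mice in 3 groups. The Control group (4 libraries) was WT lung given saline vehicle in place of bleomycin, and the WT bleomycin group (5 libraries) was WT lung taken 14 days after a single oropharyngeal dose of bleomycin of 1 U per kg, a drug that injures the lung and leads to fibrosis. The CB1R KO bleomycin group (4 libraries) received the same dose and was collected on the same day, in mice without a working Cnr1 gene, which encodes the cannabinoid receptor CB1R. The knockout (Cnr1-/-) is present in every cell of the animal and was kept on the C57BL/6J background, and the purchased C57BL/6J mice were males obtained at 13 weeks of age. CB1R KO lungs without bleomycin were not analysed here, so CB1R KO bleomycin lungs differ from Control lungs in both genotype and treatment.

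Cells meet oxidants with enzymes of several kinds. Superoxide dismutases turn superoxide into hydrogen peroxide, which catalase (Cat) in peroxisomes and the peroxiredoxins and glutathione peroxidases remove. The glutathione and thioredoxin systems supply the reducing power, and the transcription factor Nrf2 (gene Nfe2l2) raises many of these genes through the antioxidant response element once its partner Keap1 no longer sends it for degradation. Nqo1, Hmox1, Gclc, Gclm, Txnrd1 and Srxn1 are textbook targets of Nrf2, whereas the superoxide dismutases and Cat are antioxidant enzymes with several other inputs.

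The core of the antioxidant response element, searched as TGACNNNGC on both strands, is shown for the members in which it lies near the start of the gene. RefSeq windows from 250 bases before to 50 bases after the start, on the build GRCm38.p6, were given for 7 of the 10 members, and 4 of these 7 genes (57.1%) held a match. Of the 15749 genes of the count table with such a window, 2420 (15.4%) held it. The stretches are printed 5′ to 3′ on the strand of the gene, which is the plus strand of the chromosome for each of them, with the match in capitals. Each match lies on the opposite strand and so reads as the reverse complement of the core.
Gclm, chr3:122245383-122245471: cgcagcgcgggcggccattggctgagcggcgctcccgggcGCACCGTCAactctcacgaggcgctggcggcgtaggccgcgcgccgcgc
Txnrd1, chr10:82859074-82859162: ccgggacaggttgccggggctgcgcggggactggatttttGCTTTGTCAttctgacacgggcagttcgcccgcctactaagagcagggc
Srxn1, chr2:152105542-152105570: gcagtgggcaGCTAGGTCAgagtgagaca
Sod1, chr16:90220666-90220754: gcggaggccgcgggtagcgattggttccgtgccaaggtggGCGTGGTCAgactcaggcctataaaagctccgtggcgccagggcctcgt

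Relative to the start of the gene, the first base of the match was at position -134 in Gclm, -92 in Txnrd1, -56 in Sod1 and 28 in Srxn1. Txnrd1 had 3 windows for 3 starts, and the match was in 1 of them. None of the 4 matches overlapped TGACTCA, the letters of an AP-1 site. The windows of Cat, Nqo1 and Sod2 held no match, and no window was given for Hmox1, Gclc or Sod3. Sequence farther from the start was not searched, so these genes may hold the element elsewhere. The genes with a match did not share a direction, since Txnrd1 and Srxn1 were higher after bleomycin, Sod1 was lower and Gclm did not pass the test. A match describes these letters only.

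The libraries held between 14615904 and 16662580 estimated counts, except CB1R KO bleomycin replicate 11 with 53463884, which is 3.33 times the median of the others. Each library is named by the number in its label. Values are given as CPM, counts divided by the TMM-scaled size of the library, in the order of replicates 3, 21, 24 and 26 for Control, 4, 2, 5, 4-B2 and 7 for WT bleomycin, and 8, 9, 10 and 11 for CB1R KO bleomycin. TPM, which is also divided by transcript length, was used where levels of different genes are set side by side. Cnr1 itself had 27 to 69 estimated counts in Control, 50 to 110 in WT bleomycin and 41 to 188 in the libraries labelled CB1R KO. The value of 188 belongs to the deep replicate 11. In CPM the means were 2.67, 5.77 and 4.04 in the same order, and the CB1R KO and WT bleomycin libraries overlapped. The counts of Cnr1 thus did not check the genotype.

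The first comparison asked how the lung of WT mice differed 14 days after bleomycin. Hmox1 of heme breakdown rose to 2.99-fold of Control, the thiol repair genes Srxn1 and Txnrd1 to 1.86-fold and 1.54-fold, and Gclc of glutathione synthesis to 1.64-fold. Sod1 and Cat fell, to levels 36.5% and 48.7% below Control. Nqo1, Gclm, Sod2 and Sod3 did not pass the test. In the quasi-likelihood test of edgeR, with p-values adjusted by Benjamini-Hochberg over all tested genes and a threshold of 0.05, 4 of 10 members were thus higher and 2 lower, beside 25% and 23.9% of all genes tested. The same 6 members were those whose WT bleomycin and Control libraries did not overlap, against 40.3% of all genes. The median log2 fold change was 0.04 over the members and -0.01 over all genes.

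**Figure D1:**
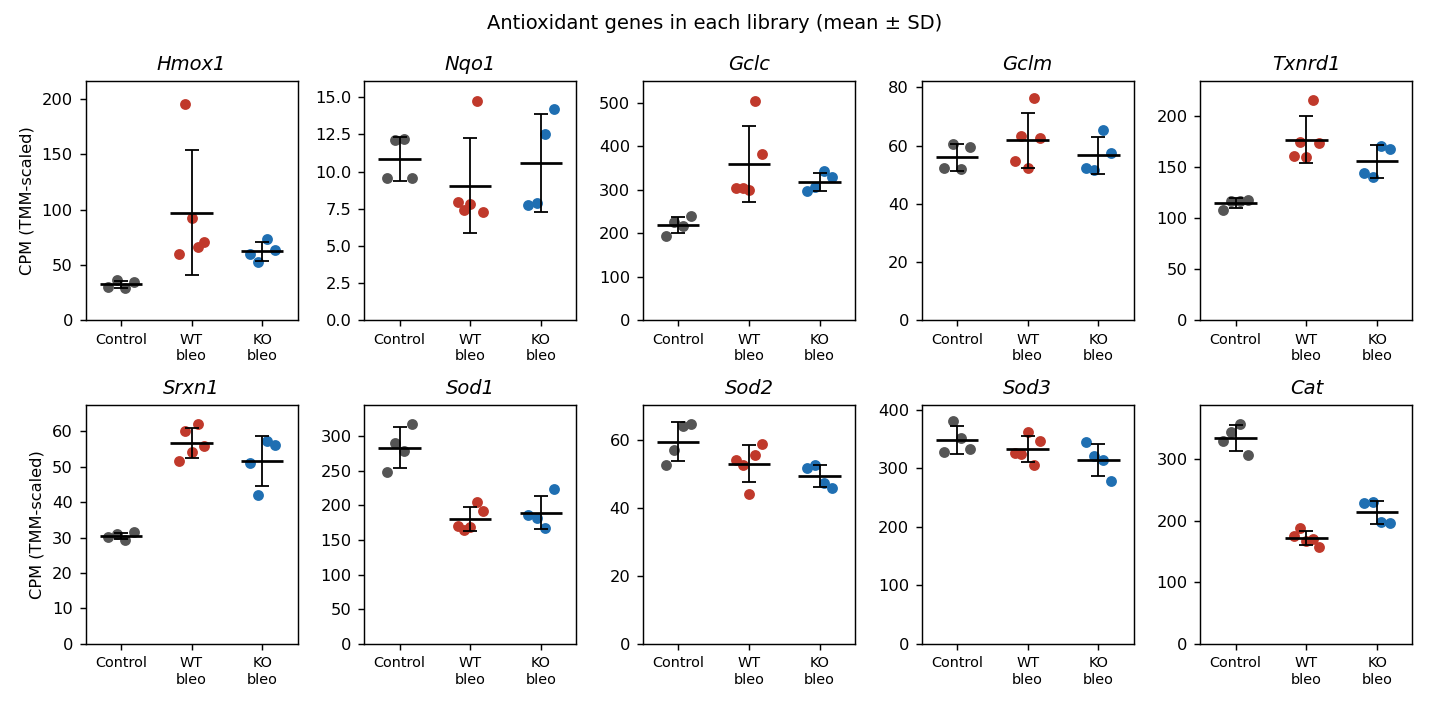
Each panel shows 1 member, with the CPM of every library as a point, grouped as Control, WT bleomycin (WT bleo) and CB1R KO bleomycin (KO bleo), and the mean with its SD as black lines. Cat lies between 307 and 356 CPM in Control, between 158 and 188 in WT bleomycin and between 196 and 230 in CB1R KO bleomycin, without overlap.

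Hmox1 encodes heme oxygenase 1, which breaks heme down to biliverdin, iron and carbon monoxide. Its Control libraries held 30.3, 36.2, 29.1 and 34.1 CPM. The WT bleomycin libraries held 60.1, 196, 92.2, 66.3 and 71.0 CPM, and the CB1R KO bleomycin libraries 59.5, 52.4, 73.1 and 63.7. Every bleomycin library of either genotype lay above every Control library, and WT bleomycin replicate 2 stood far above the rest of its group. Relative to its mean, Hmox1 had the widest spread of the members in the WT bleomycin group, with 97.1 ± 56.5 CPM (SD, n = 5), a coefficient of variation of 58.2% against 10.2% in Control. Between WT bleomycin and Control the log2 fold change was 1.58 (SE 0.29, edgeR adjusted p = 0.000446). Without WT bleomycin replicate 2 it was 1.16 (SE 0.13, edgeR adjusted p = 1.83e-05), or 2.23-fold.

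Hmox1 is known to be expressed strongly by macrophages. Of 7 markers of macrophages and monocytes, 6 were higher and none lower in WT bleomycin than in Control, where 25% of all genes were higher. Of 6 alveolar macrophage markers none was higher and 2 were lower. Fibroblast markers were higher in 3 of 5, and of 5 smooth muscle markers 3 were higher and 1 lower. The summed TPM of the macrophage and monocyte markers ran from 274 to 352 in Control, from 1129 to 1329 in WT bleomycin and from 812 to 1277 in CB1R KO bleomycin. The most abundant of them, the complement genes C1qa and C1qb, went from 61.6 ± 9.94 and 49.6 ± 9.63 TPM in Control (SD, n = 4) to 460 ± 14.9 and 400 ± 14.5 in WT bleomycin (SD, n = 5). WT bleomycin replicate 2 had the highest macrophage and monocyte sum of all libraries, 1329 TPM, and replicate 4, with the next highest sum of 1289 TPM, had 60.1 CPM of Hmox1. In bulk tissue fewer or more cells of a type and less or more RNA per cell cannot be told apart, and the part of cell composition in the Hmox1 result was not tested.

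**Figure D2:**
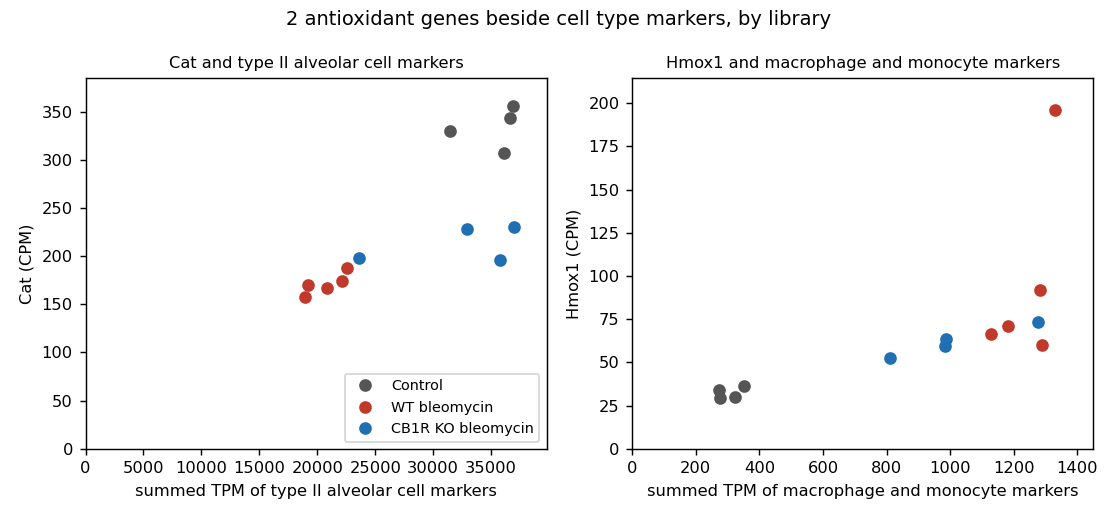
Left, Cat in CPM against the summed TPM of 7 type II alveolar cell markers, and right, Hmox1 in CPM against the summed TPM of 7 macrophage and monocyte markers, with 1 point per library coloured by group. The Control libraries lie at the lowest macrophage sums (274 to 352 TPM) and the WT bleomycin libraries at the lowest type II sums (18939 to 22538 TPM).

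Gclc and Gclm encode the catalytic and the modifier subunit of glutamate-cysteine ligase, the enzyme of the first step of glutathione synthesis. Gclc was at 194, 225, 216 and 238 CPM in Control, at 304, 303, 299, 503 and 382 CPM in WT bleomycin, and at 297, 305, 342 and 328 CPM in CB1R KO bleomycin. The bleomycin libraries were all above the Control libraries, with WT bleomycin replicate 4-B2 the highest. The log2 fold change of Gclc between WT bleomycin and Control was 0.71 (SE 0.14, edgeR adjusted p = 0.00059).

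Gclm ran close in all groups. It was at 52.3, 60.5, 51.8 and 59.6 CPM in Control, at 54.8, 63.3, 52.2, 76.3 and 62.6 in WT bleomycin, and at 52.2, 51.7, 65.2 and 57.4 in CB1R KO bleomycin. The groups overlapped, and the log2 difference between WT bleomycin and Control was 0.14 (SE 0.11, edgeR adjusted p = 0.292). The transcripts of the subunits of this enzyme stood in another ratio after bleomycin, and their proteins were not measured. The TPM ratio of Gclm to Gclc was 0.457 ± 0.0498 in Control (SD, n = 4), 0.320 ± 0.050 in WT bleomycin (SD, n = 5) and 0.318 ± 0.0183 in CB1R KO bleomycin (SD, n = 4). Its lowest Control library had 0.409 and its highest WT bleomycin library 0.387, so these groups did not overlap. Computed from CPM the ratio was lower throughout, at 0.257, 0.176 and 0.178, with the same order of Control above both bleomycin groups. The ratio was described and not tested.

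The pair Txnrd1 and Srxn1 keep protein thiols reduced. Txnrd1, the cytosolic thioredoxin reductase, was at 108, 117, 116 and 118 CPM in Control, at 161, 175, 160, 216 and 173 in WT bleomycin, and at 144, 140, 171 and 168 in CB1R KO bleomycin. Srxn1, sulfiredoxin, which repairs over-oxidised peroxiredoxins, was at 30.1, 31.0, 29.3 and 31.4 CPM in Control, at 51.7, 60.0, 54.1, 62.1 and 55.8 in WT bleomycin, and at 51.1, 41.9, 57.2 and 56.3 in CB1R KO bleomycin. No bleomycin library of either gene reached down to a Control library, and the Control libraries of Srxn1 differed by a coefficient of variation of only 3.19%. Between WT bleomycin and Control, the log2 fold change was 0.62 for Txnrd1 (SE 0.09, edgeR adjusted p = 6.21e-05). For Srxn1 it was 0.90 (SE 0.09, edgeR adjusted p = 2.24e-06).

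Nqo1 encodes a quinone reductase that uses NADPH or NADH and is the reporter gene most often used for Nrf2 activity. It was the lowest of the members per length in every group. Its libraries held 9.57, 12.1, 12.2 and 9.60 CPM in Control, 7.92, 7.41, 7.81, 14.7 and 7.28 in WT bleomycin, and 7.72, 7.90, 12.5 and 14.2 in CB1R KO bleomycin. Of the WT bleomycin libraries, 4 lay below every Control library and replicate 4-B2 lay above all of them, while the CB1R KO libraries split into 2 below and 2 above the Control range. With all libraries the log2 difference between WT bleomycin and Control was -0.27 (SE 0.23, edgeR adjusted p = 0.363). Without replicate 4-B2 it was -0.51 (edgeR adjusted p = 0.0423), so that 1 library decided whether Nqo1 was called lower. Replicate 4-B2 was also the highest WT bleomycin library for Gclc, Gclm, Txnrd1, Srxn1 and Sod1, 6 of the 10 members in all. It shares the number 4 with another WT bleomycin library, and the labels do not say what B2 marks. Their values differ (14.7 and 7.92 CPM of Nqo1), and both were counted.

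The superoxide dismutases differ in where they work. Sod1 is the copper and zinc enzyme of the cytosol, Sod2 the manganese enzyme of mitochondria and Sod3 the extracellular copper and zinc enzyme, which is abundant in lung. Sod1 was at 247, 290, 278 and 318 CPM in Control, at 171, 164, 168, 205 and 192 in WT bleomycin, and at 185, 182, 168 and 223 in CB1R KO bleomycin. All bleomycin libraries lay below all Control libraries, and the log2 fold change between WT bleomycin and Control was -0.65 (SE 0.09, edgeR adjusted p = 6.2e-05).

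Sod2 and Sod3 overlapped between these groups. Sod2 was at 52.5, 57.0, 64.0 and 64.6 CPM in Control, at 54.1, 52.5, 44.1, 55.4 and 58.9 in WT bleomycin, and at 51.6, 52.7, 47.3 and 46.0 in CB1R KO bleomycin. Its log2 difference between WT bleomycin and Control was -0.17 (SE 0.09, edgeR adjusted p = 0.127). Sod3 was at 329, 381, 352 and 333 CPM in Control, at 326, 325, 363, 306 and 348 in WT bleomycin, and at 345, 322, 314 and 279 in CB1R KO bleomycin. Its log2 difference between WT bleomycin and Control was -0.06 (SE 0.07, edgeR adjusted p = 0.491), the closest to 0 of the 10 members.

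Per length, Sod1 was by far the most abundant of the members, with 895 ± 73.1 TPM in Control (SD, n = 4), 580 ± 45.2 in WT bleomycin (SD, n = 5) and 619 ± 50.4 in CB1R KO bleomycin (SD, n = 4). It made up 85.3% of the summed TPM of the superoxide dismutases in Control, 79.4% in WT bleomycin and 80.5% in CB1R KO bleomycin. The share of Sod3 was 13.1%, 18.6% and 17.1% in the same order, and that of Sod2 was 1.56%, 2.00% and 2.36%. The lowest Sod1 share in Control, 84.1%, lay above the highest in either bleomycin group, 82.6% in WT and 82.5% in CB1R KO. Shares of CPM, which do not correct for length, put Sod3 first, at 50.5%, 58.9% and 56.8%, ahead of Sod1 at 40.9%, 31.7% and 34.2%, with Sod2 at 8.61%, 9.36% and 8.91%. On both scales the mean Sod1 share was lower and the mean Sod3 share higher after bleomycin. In CPM, CB1R KO replicate 11 lay within the Control range for both shares. Its Sod1 share was 40.7% (Control 39.3% to 44.4%) and its Sod3 share 50.9% (Control 46.5% to 52.3%). These shares are a description without a test.

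**Figure D3:**
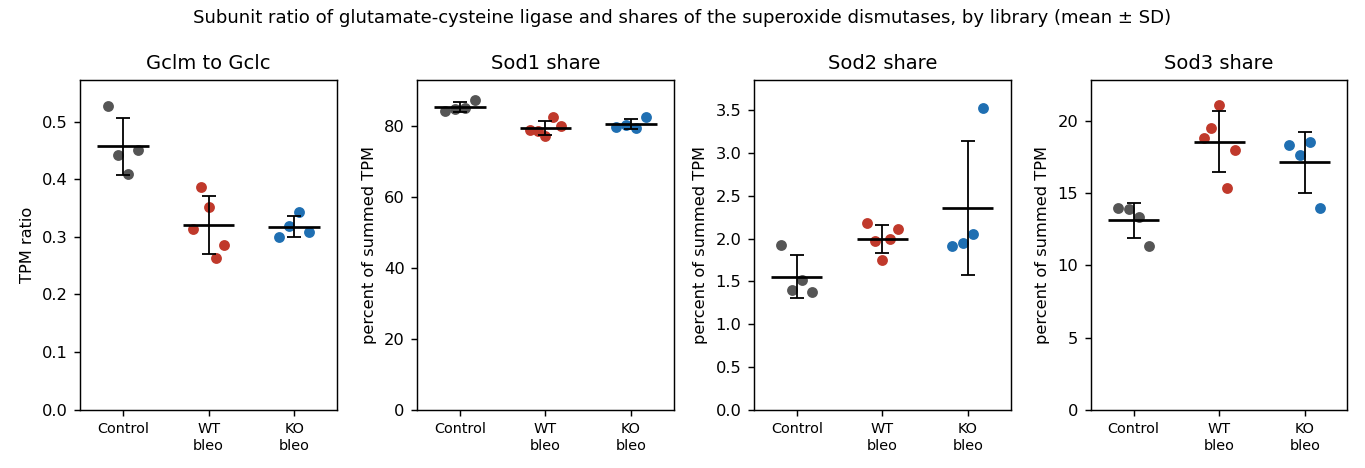
The left panel shows the TPM ratio of Gclm to Gclc and the other panels the share of each superoxide dismutase in the summed TPM of the 3 genes, with 1 point per library and the mean ± SD as black lines. The Gclm to Gclc ratio lies between 0.409 and 0.527 in Control and between 0.263 and 0.387 in WT bleomycin, and the highest Sod2 share, 3.53%, belongs to CB1R KO bleomycin replicate 11.

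Cat encodes catalase, which splits hydrogen peroxide in peroxisomes. It was at 329, 344, 356 and 307 CPM in Control, at 174, 188, 167, 170 and 158 in WT bleomycin, and at 229, 230, 198 and 196 in CB1R KO bleomycin. The groups formed separate ranges with Control highest, CB1R KO bleomycin between and WT bleomycin lowest. The fall from Control to WT bleomycin, -0.96 on the log2 scale (SE 0.07, edgeR adjusted p = 1.96e-07), had the lowest adjusted p of the members. Of 24 other peroxisome genes, 5 fell and none rose, a share of falls near the 23.9% of all genes, with a median log2 fold change of -0.13. Among these 5, the peroxin gene Pex10 differed by -0.50 (SE 0.13, edgeR adjusted p = 0.00468).

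Markers of several cell types moved with Cat and Sod1. In WT bleomycin against Control, 5 of 7 type II alveolar cell markers fell, as did 3 of 5 type I and 4 of 5 airway secretory markers. The 6 endothelial markers and the 5 red blood cell genes all fell, where 23.9% of all genes were lower. None of these lists had a member that rose. Falls were also called in 5 of 5 cardiac muscle, 3 of 4 neutrophil, 3 of 6 T and natural killer cell and 2 of 4 adipocyte markers. Of 6 alveolar macrophage markers 2 fell, of 5 ciliated markers 1 fell, and of 5 B and plasma cell markers 4 fell and 1 rose. Fibroblast, macrophage and monocyte markers had no falls, and of 5 smooth muscle markers 3 rose and 1 fell. The type II sum was 31477 to 36863 TPM in Control and 18939 to 22538 in WT bleomycin, led by the surfactant genes Sftpc (27907 ± 1893 TPM in Control, SD, n = 4, and 16027 ± 1463 in WT bleomycin, SD, n = 5) and Sftpb (3731 ± 353 and 2705 ± 71.6). The red blood cell sum, led by the hemoglobin genes Hbb-bs and Hba-a2, was 18554 to 22525 TPM in Control and 7925 to 11523 in WT bleomycin. The part of cell composition in the results on Cat and Sod1 was not tested.

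In the order of TPM, the members spanned a wide range in Control, from 895 for Sod1 through 196 for Cat, 137 for Sod3, 94.3 for Gclc, 58.1 for Txnrd1, 43.0 for Gclm, 33.0 for Hmox1, 16.3 for Srxn1 and 16.2 for Sod2 to 11.2 for Nqo1. Of these neighbours, only Srxn1 and Sod2 overlapped between libraries. In WT bleomycin the order was Sod1, Gclc, Sod3, Cat, Hmox1, Txnrd1, Gclm, Srxn1, Sod2 and Nqo1. Gclc had passed from the fourth to the second place with 158 ± 34.3 TPM (SD, n = 5), but its libraries overlapped those of Sod3, 135 ± 9.74 TPM. Cat had moved from the second to the fourth place with 106 ± 8.14 TPM, and its libraries overlapped those of Hmox1 (102 ± 61.6 TPM), which in turn overlapped those of Txnrd1 (92.1 ± 8.15 TPM). In CB1R KO bleomycin, Cat (138 ± 11.9 TPM, SD, n = 4) stood in the third place, between Gclc (145 ± 8.85 TPM) and Sod3 (131 ± 12.5 TPM), and neither neighbour was separated from it.

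The second comparison asked how the lungs of the CB1R KO group differed from WT lungs under the same bleomycin treatment. No member passed the threshold in edgeR's quasi-likelihood test, beside 0.979% of all genes tested. The unadjusted p of this test was under 0.05 in 2 of 10 members, beside 2608 of the 15315 genes tested. DESeq2 and limma on TPM each called 1 member, Cat. The fitted difference was positive in 3 members (Nqo1, Sod1 and Cat) and negative in 7, with a median log2 fold change of -0.11. Over all genes tested it was positive in 50.1%, with a median of 0.0005. Cat was the 1 member of 10 whose libraries did not overlap, against 5.6% of all genes. The WT bleomycin libraries are shared between this and the first comparison, so the values of the 2 are not independent.

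Cat was 1.24-fold higher in CB1R KO bleomycin than in WT bleomycin, with 213 ± 18.7 CPM (SD, n = 4) against 171 ± 11.2 (SD, n = 5). All 4 CB1R KO libraries lay above all 5 WT bleomycin libraries. The log2 fold change was 0.31 (SE 0.07, unadjusted p = 0.000544), and the edgeR adjusted p of 0.0527 fell just short of the threshold. Over 25 alternative settings the log2 fold change stayed between 0.26 and 0.39, and the adjusted p ranged from 0.00344 to 0.285. It was under the threshold with DESeq2 on all groups (adjusted p = 0.00344), DESeq2 on the pair of groups (0.00624), limma on TPM (0.0417 and 0.044 with pseudocounts of 1 and 0.1), after thinning of CB1R KO replicate 11 (edgeR adjusted p = 0.0465) and without CB1R KO replicate 10 (edgeR adjusted p = 0.0244). In the other 19 settings it was not. Among these were the case of the titles as a term (log2 fold change 0.26, edgeR adjusted p = 0.143) and lower-case titles alone (0.27, edgeR adjusted p = 0.285).

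The same direction was seen among type II markers, of which 3 of 7 were higher in CB1R KO than in WT bleomycin and none lower. Of all genes tested, 0.979% passed in either direction. Higher too were 1 of 6 endothelial markers and 1 of 6 T and natural killer cell markers, while 2 of 5 smooth muscle markers were lower. The remaining marker lists had no gene past the threshold. The type II sum was 32918, 36990, 23605 and 35772 TPM in CB1R KO replicates 8, 9, 10 and 11, and 18939 to 22538 TPM in WT bleomycin. Replicate 10 had both the lowest type II sum and, in TPM, the lowest Cat of its group, 121 TPM against 142 to 146, whereas in CPM replicates 10 and 11 were alike at 198 and 196. Of the 24 other peroxisome genes none passed the edgeR test, with a median log2 fold change of 0.08. The part of cell composition in the Cat difference was not tested.

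Hmox1 was the other member with an unadjusted p under 0.05. It was 62.2 ± 8.65 CPM in CB1R KO bleomycin (SD, n = 4) and 97.1 ± 56.5 in WT bleomycin (SD, n = 5), a log2 difference of -0.64 (SE 0.28, unadjusted p = 0.0360, edgeR adjusted p = 0.255). The groups overlapped, with 2 of the 4 CB1R KO libraries below every WT bleomycin library. The difference rested largely on WT bleomycin replicate 2, without which it was -0.22 (SE 0.13, edgeR adjusted p = 0.439).

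The other 8 members had neither an adjusted nor an unadjusted p under 0.05. The log2 difference between CB1R KO and WT bleomycin was -0.18 for Txnrd1 (SE 0.09, edgeR adjusted p = 0.315), -0.17 for Gclc (SE 0.13), -0.13 for Srxn1 (SE 0.09) and -0.13 for Gclm (SE 0.11). That of Nqo1 was 0.25 (SE 0.23), and it rested on single libraries, at 0.06 without CB1R KO replicate 11 and 0.49 without WT bleomycin replicate 4-B2. The titles of WT bleomycin replicates 4-B2 and 7 are in upper case and those of all CB1R KO libraries in lower case, and among libraries with lower-case titles Gclc differed by 0.07, the opposite direction. Among the superoxide dismutases it was 0.08 for Sod1 (SE 0.10), -0.10 for Sod2 (SE 0.09) and -0.08 for Sod3 (SE 0.07). In each of these 8 members the libraries of the groups overlapped.

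**Figure D4:**
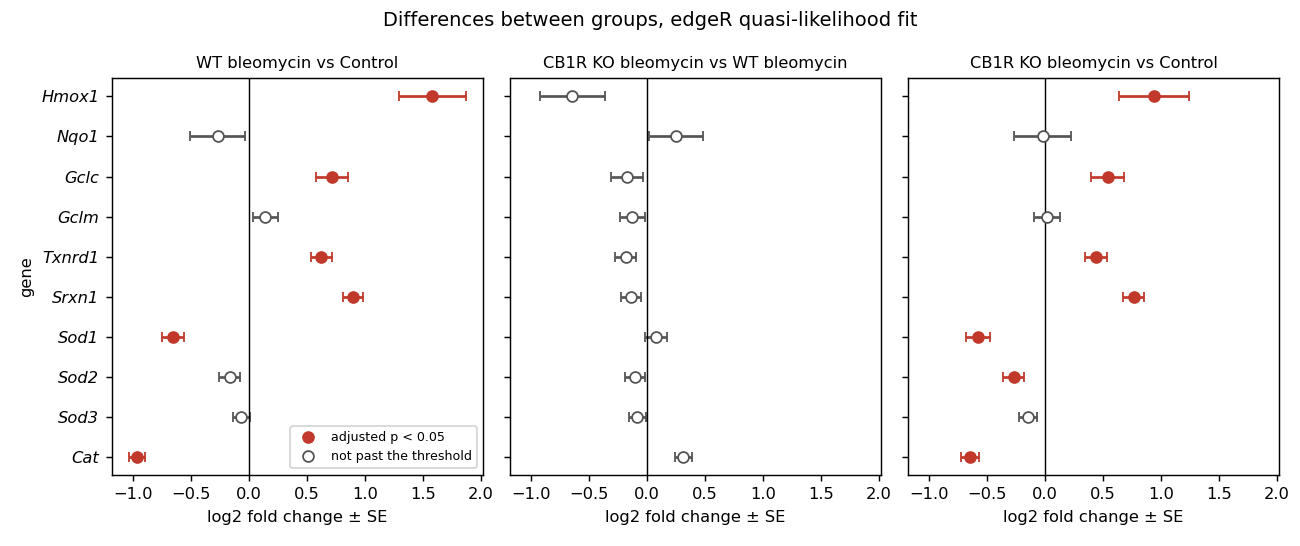
Each panel shows 1 comparison, with the log2 fold change of each member as a point and its standard error as a horizontal bar, filled red where the adjusted p was under 0.05. The left panel has 4 filled points above and 2 below 0, the right panel 4 above and 3 below, and no point in the middle panel is filled.

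Sod2 depended on the unit. CB1R KO replicate 11 had 46.0 CPM, the lowest of its group, but 29.0 TPM, the highest of all libraries, where the other 3 CB1R KO libraries had 14.4 to 15.1 TPM. Its ratio of CPM to TPM for Sod2 was 0.446 of that in the median library, while for 8 of the other members this relative ratio stayed between 0.887 and 1.11 in every library and for Cat it was lowest in the same library, at 0.829. With limma on TPM the log2 difference between CB1R KO and WT bleomycin was 0.25 for Sod2 with a pseudocount of 1, the opposite direction from the counts. Replicate 11 is also the library with the largest number of counts, and the part of depth or of transcript assignment was not tested.

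Set against Control, the CB1R KO bleomycin lungs showed 4 members higher and 3 lower in the same edgeR test, beside 19% and 16.3% of all genes tested. Those higher were Srxn1 with a log2 fold change of 0.76 (SE 0.09, edgeR adjusted p = 3.24e-05), Txnrd1 with 0.44 (SE 0.09, edgeR adjusted p = 0.0025), Gclc with 0.54 (SE 0.14, edgeR adjusted p = 0.00864) and Hmox1 with 0.94 (SE 0.30, edgeR adjusted p = 0.0245). Those lower were Cat with -0.65 (SE 0.08, edgeR adjusted p = 2.33e-05), Sod1 with -0.58 (SE 0.10, edgeR adjusted p = 0.000577) and Sod2 with -0.27 (SE 0.09, edgeR adjusted p = 0.0325). The libraries did not overlap in 6 members, all of these but Sod2, against 33.5% of all genes. Both comparisons with Control use the same Control libraries.

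The calls on Hmox1 and Sod2 in this comparison were not stable. Hmox1 lost its call without Control replicate 3 (edgeR adjusted p = 0.0522), Control replicate 24 (0.0619), CB1R KO replicate 10 (0.0629) or CB1R KO replicate 11 (0.0504), while its log2 fold change stayed at 0.91, 0.89, 0.86 and 0.93. WT bleomycin replicate 2 is in neither group but enters the spread shared by the fit. Without it, Hmox1 had 0.94 (SE 0.13, edgeR adjusted p = 0.000177). Of 25 alternatives, Hmox1 was called in 21 and Sod2 in 17. Sod2 lost its call without Control replicate 24 (edgeR adjusted p = 0.0916), Control replicate 26 (0.0862), CB1R KO replicate 10 (0.0891) or CB1R KO replicate 11 (0.1003). The Sod2 call was also lost with the case of the titles as a term (0.0523) or among lower-case titles alone (0.0942). On TPM the Sod2 difference was positive, at 0.11 (limma, pseudocount of 1). Nqo1 with -0.02, Gclm with 0.02 and Sod3 with -0.15 (SE 0.08, edgeR adjusted p = 0.148) were not called.

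In 8 of the 10 members the mean CPM of CB1R KO bleomycin lay between those of Control and WT bleomycin. The exceptions were Sod2 and Sod3, in which it was the lowest of the 3 groups. For Hmox1 the means were 32.4, 97.1 and 62.2 CPM in Control, WT bleomycin and CB1R KO bleomycin, and for Cat 334, 171 and 213. The 8 include Nqo1 and Gclm, which passed the edgeR test with all libraries in no comparison. This order of means was not tested, and how often it occurs among all genes was not counted. Apart from Cat, the CB1R KO and WT bleomycin libraries overlapped.

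Of 10 genes that control Nrf2 or pair with it, 8 did not pass the test in WT bleomycin against Control. Nfe2l2, which encodes Nrf2, was at 146, 196, 213 and 208 CPM in Control, 225, 213, 207, 215 and 207 in WT bleomycin, and 256, 207, 213 and 168 in CB1R KO bleomycin. The groups overlapped, and the log2 difference between WT bleomycin and Control was 0.16 (edgeR adjusted p = 0.267). Keap1 differed by -0.02 and Bach1, a repressor of Hmox1 that binds the same element, by -0.10 (edgeR adjusted p = 0.128). Of the 10 genes, 1 was higher, the small Maf gene Maff with a log2 fold change of 0.59 (SE 0.17, edgeR adjusted p = 0.00967), and 1 was lower, Sqstm1, whose product p62 draws Keap1 into autophagy, with -0.20 (SE 0.06, edgeR adjusted p = 0.0191), where 25% of all genes were higher and 23.9% lower. The count of 2 was 1 without Control replicate 21 or 26 and 3 without Control replicate 3. In CB1R KO against WT bleomycin none of the 10 passed the edgeR test. Maff differed by -0.67 (edgeR adjusted p = 0.070) and lay lower in all 4 CB1R KO libraries, 36.6 to 49.3 CPM, than in the WT bleomycin libraries, 55.4 to 72.8 CPM. Nrf2 is mainly controlled through its protein, which RNA sequencing does not measure.

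Around the glutathione enzymes, 5 of 16 genes rose and 2 fell in WT bleomycin against Control, beside 25% of all genes that were higher and 23.9% that were lower. Those with the lowest p were Gpx7, a peroxidase of the endoplasmic reticulum, with a log2 fold change of 1.19 (SE 0.13, edgeR adjusted p = 4.22e-06), and Glrx, glutaredoxin, with 1.09 (SE 0.10, edgeR adjusted p = 1.15e-06). Ggt1, which breaks extracellular glutathione down, fell by 1.21 on the log2 scale (SE 0.21, edgeR adjusted p = 0.000285). Its level was low, at a mean of 3.04 CPM in Control and 1.31 in WT bleomycin. Gpx3, the secreted glutathione peroxidase, fell by 0.27 (SE 0.09, edgeR adjusted p = 0.0245). Slc7a11, the cystine carrier that feeds glutathione synthesis and a target of Nrf2, is named after its values were seen, with 3.15, 4.27, 2.63 and 2.77 CPM in Control and 13.6, 16.6, 11.1, 17.0 and 9.56 in WT bleomycin. The groups did not overlap, and its log2 fold change of 2.08 was larger than that of any member.

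Of 14 thioredoxin and peroxiredoxin genes 11 passed the test, 8 higher and 3 lower, where 25% of all genes were higher and 23.9% lower, and the median log2 fold change of the list was 0.35. Prdx5, a peroxiredoxin, differed by 0.66 (SE 0.08, edgeR adjusted p = 1.87e-05) and Sesn3, a sestrin, by 0.62 (SE 0.08, edgeR adjusted p = 3.24e-05). Txnip, an inhibitor of thioredoxin, was at 1193 to 1876 CPM in Control and at 551 to 762 in WT bleomycin, with a log2 fold change of -1.09 (SE 0.16, edgeR adjusted p = 6.58e-05). Sesn1 differed by -0.80 (SE 0.09, edgeR adjusted p = 4.03e-06). The groups did not overlap in any of these 4 genes, beside 40.3% of all genes. The 4 were named for their low p in this comparison, so their separation adds nothing to the test.

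Of 7 genes that supply NADPH, the reducing power used by Txnrd1 and glutathione reductase, 5 rose and 1 fell, where 25% of all genes were higher and 23.9% lower. The pentose phosphate enzyme Pgd had a log2 fold change of 0.60 (SE 0.08, edgeR adjusted p = 4.5e-05) and Idh1 of 0.39 (SE 0.08, edgeR adjusted p = 0.00065). The mitochondrial transhydrogenase Nnt differed by -0.40 (SE 0.14, edgeR adjusted p = 0.034), with overlapping libraries. C57BL/6J mice are known to carry a deletion in Nnt, and where in the gene its reads lay was not analysed here.

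Hmox1 stands in a chain of heme and iron genes, of which 5 of 8 rose and 1 fell, where 25% of all genes were higher and 23.9% lower. The ferritin chains, which store the iron that heme breakdown releases, were among them, with log2 fold changes of 0.66 for Ftl1 (SE 0.09, edgeR adjusted p = 3.92e-05) and 0.53 for Fth1 (SE 0.09, edgeR adjusted p = 0.000227). Slc48a1, a heme transporter, fell by 0.23 on the log2 scale (SE 0.07, edgeR adjusted p = 0.00978). Copies of ferritin genes elsewhere in the genome can share reads with Fth1 and Ftl1, which makes their counts less certain.

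Of 12 other targets of Nrf2, 2 were higher and 7 lower, where 25% of all genes were higher and 23.9% lower, with a median log2 fold change of -0.36. The aldo-keto reductase gene Akr1b8 rose by 1.55 on the log2 scale (SE 0.13, edgeR adjusted p = 4.81e-07) and Ugdh, an enzyme of glucuronic acid supply, by 0.30 (SE 0.06, edgeR adjusted p = 0.00143). Pir differed by -0.71 (SE 0.09, edgeR adjusted p = 2.14e-05). Gstm1, a glutathione transferase, was at 369, 389, 396 and 412 CPM in Control, at 134, 138, 113, 166 and 129 in WT bleomycin and at 192, 199, 194 and 194 in CB1R KO bleomycin. The ranges were separate, in the same order as those of Cat. Its log2 difference between WT bleomycin and Control was -1.53 (SE 0.08, edgeR adjusted p = 3.22e-08). In CB1R KO against WT bleomycin its log2 difference was 0.52 (SE 0.08, edgeR adjusted p = 0.0186). It was the 1 gene among the 108 tested of the 9 lists that passed the edgeR test there, a share near the 0.979% of all genes, and the call was lost without CB1R KO replicate 8, 9 or 11. DESeq2 on all groups called 2 genes of this list, 2 thioredoxin and peroxiredoxin genes, 1 gene of Nrf2 control and 1 peroxisome gene. Over all genes it called 644 in this comparison, where edgeR called 150. Members of the glutathione transferase mu family are similar in sequence, and reads may be split among them.

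**Figure D5:**
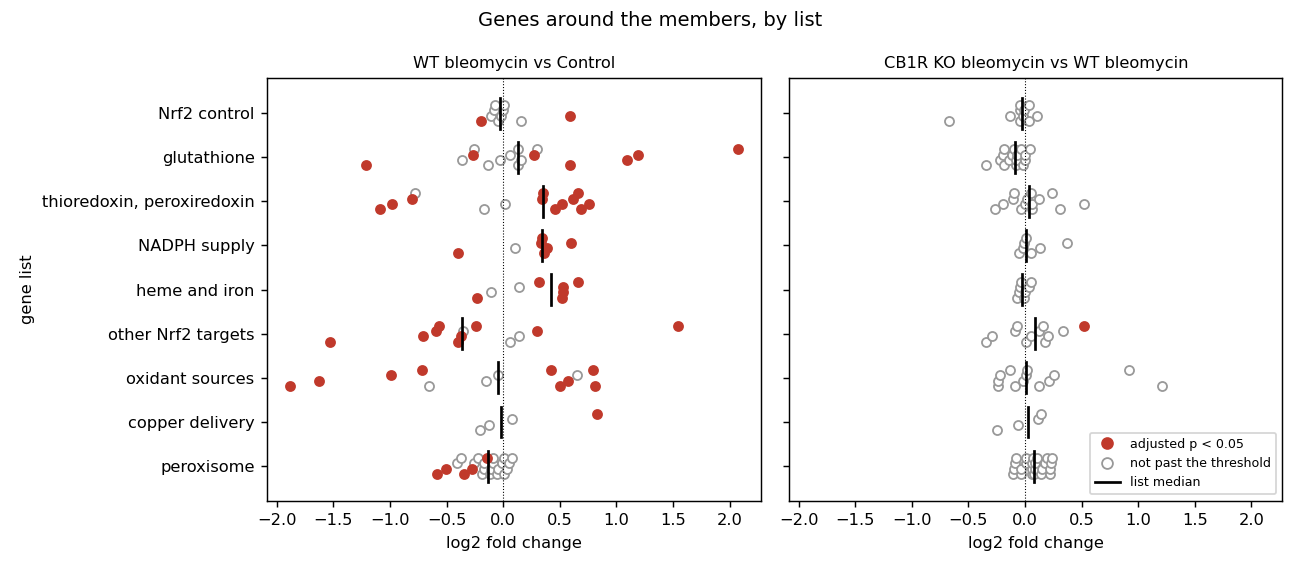
Each row is 1 gene list, with the log2 fold change of every tested gene as a point, filled red where the adjusted p was under 0.05, and a black line at the list median, for WT bleomycin against Control (left) and CB1R KO against WT bleomycin (right). On the left the thioredoxin and peroxiredoxin list has its median at 0.35 and the other Nrf2 targets at -0.36, and on the right 1 point is filled, Gstm1.

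Among the sources of oxidants, 5 of 13 tested genes rose and 4 fell, where 25% of all genes were higher and 23.9% lower. Cybb and Cyba, which encode the membrane core of the phagocyte NADPH oxidase, had log2 fold changes of 0.82 (SE 0.17, edgeR adjusted p = 0.00125) and 0.79 (SE 0.10, edgeR adjusted p = 2.57e-05). The macrophage and monocyte markers moved with them, 6 of 7 higher and with the summed TPM given beside Hmox1. Markers of other phagocytes did not, with 3 of 4 neutrophil and 2 of 6 alveolar macrophage markers lower and none higher. The part of these cells in this result was not tested. Xdh, xanthine dehydrogenase, differed by -0.99 (SE 0.17, edgeR adjusted p = 0.000276), and Duox2, at a mean of 1.48 CPM in Control, by -1.89 (SE 0.29, edgeR adjusted p = 0.000114). Of 4 genes that deliver copper to Sod1 and Sod3, 1 rose, the copper chaperone Atox1 with 0.83 (SE 0.09, edgeR adjusted p = 5.06e-06). In all, 56 of the 108 tested genes of the 9 lists passed in WT bleomycin against Control, 32 higher and 24 lower, where 25% of all genes were higher and 23.9% lower, so the total lay near the share of all genes. In CB1R KO bleomycin against Control 43 passed, 28 higher and 15 lower, where 19% of all genes were higher and 16.3% lower.

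For the members other than Gclm, the gene outside the 10 whose log2 CPM was most alike over the 13 libraries was looked up among all tested genes. It was Tsc2 for Cat (Pearson r = 0.99), Pgam1 for Srxn1 (0.99), Psmc4 for Txnrd1 (0.98), Ttc9 for Gclc (0.97), Pik3ip1 for Sod1 (0.97), Tollip for Sod2 (0.95), Dpy19l1 for Hmox1 (0.92), Adamtsl1 for Sod3 (0.90) and Khdrbs1 for Nqo1 (0.87). Once the group means were subtracted, which leaves the differences between libraries of a group, it was, with Gclm included, Rtraf for Txnrd1 (0.98), Cbr3 for Nqo1 (0.95), Pitpnb for Sod2 (0.95), Fgd1 for Srxn1 (0.94), Uqcc1 for Gclc (0.93), Vapa for Sod1 (0.93), Dnm1 for Sod3 (0.93), Pla2g1b for Cat (0.92), Cd63 for Gclm (0.90) and Usp18 for Hmox1 (0.88). Cbr3, a carbonyl reductase, is one of the 12 other Nrf2 targets. It was at 18.7, 16.5, 19.9, 28.7 and 20.1 CPM in WT bleomycin and at 19.6, 20.7, 29.5 and 34.1 in CB1R KO bleomycin. The libraries high for Nqo1, WT bleomycin replicate 4-B2 and CB1R KO replicates 10 and 11, were also those high for Cbr3. These likenesses are the highest among 15305 genes and 13 points that share library depth, and they are given as a description.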

How the data were processed

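Messenger RNA enriched with oligo(dT) from total RNA of the lower right lung lobe was sequenced in 13 libraries (4 Control, 5 WT bleomycin, 4 CB1R KO bleomycin), grouped by the labels. The authors quantified the reads with kallisto on GRCm39 (versions not given in the labels) and deposited estimated counts per gene symbol, 70.5% of them not whole numbers, and TPM values for the same genes. The 13 single-sample files hold the same values as the series tables, and 1 TPM column without a sample in the labels was not used. The deposited tables hold no coordinates, and the promoter windows are from RefSeq on GRCm38.p6, another build.

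Counts were rounded, filtered with filterByExpr, scaled by TMM and fitted over all 3 groups with edgeR 4.0.16 (quasi-likelihood test, Benjamini-Hochberg over 15315 genes, threshold 0.05) in R 4.3.3. CPM per library used the TMM-scaled library sizes. The procedure was tested on simulated counts with 200 changed genes, for WT bleomycin against Control only. In the data 7492 genes were called there, so the simulation does not cover changes in so large a share of genes. Alternatives were DESeq2 1.42.0, limma 3.58.1 on log2(TPM + 1) and log2(TPM + 0.1), RLE and upper-quartile scaling, no count filter, a minimum of 10 counts in all libraries, 2 groups only, the case of the titles (upper or lower, of unstated meaning) as a term, lower-case titles only, CB1R KO replicate 11 thinned to the mean size of the other CB1R KO libraries, and each library left out. Tables and plots used Python 3.11.15 and matplotlib 3.10.9.

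The members and the gene and marker lists were chosen with earlier results of these data known. The named genes are the 10 members, Cnr1, Nfe2l2, Keap1 and Bach1, up to 2 genes rising and 2 falling in each of 9 pathway lists, taken by smallest p among the genes called in WT bleomycin against Control and in CB1R KO against WT bleomycin, the most alike gene of each member before and after subtraction of group means, and the 2 most abundant genes of a marker list set beside a result. The labels do not say that the libraries of a group came from separate mice. If some did not, the p-values measure only the spread between these samples. Standard errors and adjusted p-values cover the spread between libraries, and with 4 or 5 libraries a group small differences were not detectable. A gene of the peroxisome list and the gene most alike to Gclm over all libraries, which this rule names, are not reported here.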

Additional observations from a re-analysis of the deposited data

Results flagged for a closer look

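Some libraries lay far from the rest of their group, by a gap that is large against the whole range of the group. Of 60 groups of member values looked at (10 members, 3 groups, CPM and TPM), 9 held such a library, where chance gives about 1 in 20 groups. CPM and TPM of a gene come from the same reads, so these are not independent.

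Nqo1 in WT bleomycin replicate 4-B2 was at 14.7 CPM against 7.28 to 7.92 in the other 4 libraries, and at 15.0 TPM against 7.57 to 8.68. The same library had 216 CPM of Txnrd1, against 160 to 175. WT bleomycin replicate 2 had 196 CPM of Hmox1 against 60.1 to 92.2, and 210 TPM against 65.0 to 95.0. Sod2 in CB1R KO replicate 11 was at 29.0 TPM against 14.4 to 15.1, but its CPM did not stand apart.

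Cat was at 175 TPM in Control replicate 26 against 201 to 206 in the other 3 libraries, and at 121 TPM in CB1R KO replicate 10 against 142 to 146. Txnrd1 in Control replicate 3 was at 108 CPM against 116 to 118.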

How the results depend on the processing

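The 10 members were refitted under 25 alternatives, and the ratios and shares were also computed from CPM. The calls on Hmox1, Gclc, Txnrd1, Srxn1, Sod1 and Cat in WT bleomycin against Control, and those on Gclc, Txnrd1, Srxn1, Sod1 and Cat in CB1R KO bleomycin against Control, held their direction and stayed past the threshold under all of them. In CB1R KO against WT bleomycin the number of members past the threshold was 0, and 1 (Cat) with DESeq2 on all groups, DESeq2 on 2 groups, limma on TPM with either pseudocount and CB1R KO replicate 11 thinned. With 1 library left out it ranged from 0 to 1. Among all genes this comparison had 150 calls, 644 with DESeq2 in either form, 93 with limma on log2(TPM + 0.1), 88 with edgeR on 2 groups, 41 with the case of the titles as a term and 6 among lower-case titles, and from 1 (without CB1R KO replicate 9) to 653 (without CB1R KO replicate 10) with 1 library left out. The cause was not tested, except that fewer samples enter some of these fits.

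These differences turned sign. In CB1R KO against WT bleomycin, Gclc was 0.016 with the case of the titles as a term and 0.073 among lower-case titles, Sod2 was 0.25 and 0.26 on TPM with pseudocounts of 1 and 0.1, and Sod1 ranged from -0.0087 to 0.13 with 1 library left out. In CB1R KO bleomycin against Control, Nqo1 was 0.029 with the case of the titles as a term and ranged from -0.20 to 0.10 with 1 library left out. Gclm was -0.0032 with upper-quartile scaling and ranged from -0.053 to 0.060. Sod2, called lower on counts, was 0.11 on TPM with either pseudocount. From CPM in place of TPM, in the order Control, WT bleomycin and CB1R KO bleomycin, the ratio of Gclm to Gclc was 0.257, 0.176 and 0.178, the Sod1 share 40.9%, 31.7% and 34.2%, the Sod2 share 8.61%, 9.36% and 8.91%, and the Sod3 share 50.5%, 58.9% and 56.8%, since CPM is not divided by length. No paired analysis was possible because the groups share no replicate number in the labels, and the number 4 recurs only within the WT bleomycin group (4 and 4-B2). The differences of Gclm, Sod2 and Sod3 between WT bleomycin and Control were under 2 of their standard errors (0.11, 0.09 and 0.07) and were not detectable with these libraries.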
